A study of Mus musculus with 12 samples.

Results

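The nucleolar ribosome biogenesis genes are those whose proteins transcribe ribosomal DNA in the nucleolus, or process and assemble the transcript into ribosomal subunits there. They were taken by name: every array probe whose target name, with case ignored, equalled 1 of 48 listed names, such as NCL, NPM1, GNL3 and LYAR, was a member. The 48 names stand for 45 genes, because 3 genes were listed under an older name as well. The names matched 35 genes, carried by 67 of the 45281 probes of the array. Of these 35 genes, 32 gave a signal above background on 3 or more of the 12 arrays and entered the tests, among 12824 tested genes in all. The other 3, Bysl, Dkc1 and Wdr12, were not above background on any array.

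RNA was measured in 6 Smchd1 null and 6 Smchd1 wildtype lymphomas taken at end stage from mice. The null lymphomas were homozygous for a gene trap insertion in Smchd1, which encodes a chromatin protein related to the SMC family with a role in X inactivation and gene silencing. Both groups were C57BL/6 and carried the Eµ-Myc transgene, in which an immunoglobulin heavy chain enhancer drives Myc in the B lineage, so neither group is free of the oncogene. Cells were sorted before RNA was extracted, by markers not given in the sources used here, and the labels give no age and do not say that each replicate was a separate animal. The p-values therefore measure only the spread between these samples, which may in part be technical.

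Ribosome production starts with RNA polymerase I, which copies ribosomal DNA into a long precursor. Small nucleolar ribonucleoproteins then guide the modification and cleavage of that precursor, and a large set of assembly factors builds the small (40S) and large (60S) subunits around it. MYC, the transcription factor driven by the transgene, is known to bind with MAX to the E-box motif CACGTG and to promote ribosome production in growing cells, and Eµ-Myc B cells are a classical setting in which this was studied.

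The E-box was looked for in the RefSeq promoter windows of the members (build GRCm38.p6, 250 bases before to 50 bases after the annotated start), which were at hand for 31 of the 35 members. CACGTG reads the same on both strands. It lay in the window of 7 of 31 members (22.6%), namely Imp4, Mybbp1a, Nop2, Pes1, Rrn3, Tsr1 and Wdr43, against 7.24% of 27025 genes with a window. The related letters CACGCG, searched on both strands and unable to overlap CACGTG, lay in 11 of 31 member windows (35.5%) and in 9.41% of all. These shares use the first window of each gene, the one that starts farthest upstream. Over all windows CACGTG lay in 17.9% of 39 member windows and in 7.15% of 32851. For CACGCG these shares were 30.8% and 9.27%. The genes with a window include genes that were not tested here, so the sets compared are unlike. Imp4, Nop2 and Rrn3 are shown since they carried CACGTG upstream of the start. Gnl3 is shown since it followed Myc most closely of all members on the probes used in the tests and had neither motif in its window. Each line holds the 250 bases before the start, 5′ to 3′, with CACGTG in capitals. Imp4 is at chr1:34439579-34439828 on the plus strand, Nop2 at chr6:125131633-125131882 on the plus strand, Rrn3 at chr16:13780449-13780698 on the plus strand and Gnl3 at chr14:31019132-31019381 on the minus strand.
Imp4: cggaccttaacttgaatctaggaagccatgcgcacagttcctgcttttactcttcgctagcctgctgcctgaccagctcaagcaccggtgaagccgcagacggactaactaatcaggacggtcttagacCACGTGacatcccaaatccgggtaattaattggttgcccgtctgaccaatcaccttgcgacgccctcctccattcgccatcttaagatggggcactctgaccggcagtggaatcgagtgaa
Nop2: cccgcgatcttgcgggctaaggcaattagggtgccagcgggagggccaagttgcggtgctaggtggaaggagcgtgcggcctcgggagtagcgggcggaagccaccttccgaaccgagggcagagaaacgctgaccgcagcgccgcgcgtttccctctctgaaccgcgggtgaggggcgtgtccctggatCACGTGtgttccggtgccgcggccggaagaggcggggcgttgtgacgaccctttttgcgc
Rrn3: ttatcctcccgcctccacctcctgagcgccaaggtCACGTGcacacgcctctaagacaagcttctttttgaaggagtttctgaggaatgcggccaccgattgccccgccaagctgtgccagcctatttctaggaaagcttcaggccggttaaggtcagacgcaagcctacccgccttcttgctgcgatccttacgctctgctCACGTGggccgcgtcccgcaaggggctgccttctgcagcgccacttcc
Gnl3: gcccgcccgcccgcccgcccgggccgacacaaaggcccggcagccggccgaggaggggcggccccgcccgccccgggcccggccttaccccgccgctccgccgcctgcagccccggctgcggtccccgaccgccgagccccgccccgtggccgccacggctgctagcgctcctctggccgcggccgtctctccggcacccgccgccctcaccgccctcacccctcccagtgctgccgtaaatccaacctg
The motif began 121 bases before the start in Imp4, 60 bases before it in Nop2, and 215 and 48 bases before it in Rrn3. The 7 tested members with CACGTG had a median Pearson r of 0.35 with the Myc level over the 12 lymphomas, and the 21 tested members whose window lacked it had a median of 0.69. Each gene was read here from the probe used in the tests. Other probes of a gene could differ, as for Mybbp1a and Nop2 below, and the medians were not compared by a test. A match is a description of letters, and no match says only that these letters are not in this window.

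Arrays of both genotypes lay on each of 2 BeadChips, with 3 null and 3 wildtype lymphomas on each. Mean raw intensity was between 254.6 and 577.3 in null and between 327.3 and 599.1 in wildtype lymphomas, and 14905 to 17679 probes in null and 15041 to 17724 in wildtype lymphomas were above background. BeadChip 2 was dimmer, with a mean of 254.6 to 468.8 against 523.9 to 599.1 on BeadChip 1. Smchd1 itself, on its brightest probe, was between 5.15 and 6.95 (log2 intensity) in null lymphomas and between 9.57 and 10.50 in wildtype lymphomas. It was 20.7-fold lower in null (log2 difference -4.37 ± 0.29, SE; limma adjusted p = 1.98e-05). On that probe every library thus went with its label. A dimmer Smchd1 probe, above background on 9 arrays, differed by -0.89 with groups that overlapped. Another, above background on 4 wildtype and 0 null arrays, differed by -0.80. The rest were not above background on any array. The B cell receptor gene Cd79b was above background on all 12 arrays, at 12.16 to 13.91 in null and 12.21 to 13.87 in wildtype lymphomas on 1 probe. T cell genes were also present: Cd3d was above background on 5 arrays of each genotype. Of 9 NK cell genes on the array 5 were tested, and 4, with Ncr1 among them, were not. The mean level of the 5 was between 5.41 and 6.27 in null and between 5.42 and 7.97 in wildtype lymphomas, highest in wildtype replicate 1. As the samples are bulk RNA, fewer cells of a kind and less RNA per cell cannot be told apart.

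The level of the 32 tested members differed more between single lymphomas than between genotypes. For each gene the log2 level in a lymphoma was set against the gene's mean over the 12 lymphomas, and these deviations were averaged over the 32 members. The mean deviation was -0.38, -0.07, 0.26, -0.04, 0.13 and 0.31 in null replicates 1 to 6, and -0.59, 0.10, 0.12, 0.05, 0.21 and -0.08 in wildtype replicates 1 to 6. The lowest lymphoma of each genotype, null replicate 1 and wildtype replicate 1, lay below the other 10, whose values overlapped between genotypes. The group means were 0.03 ± 0.26 in null and -0.03 ± 0.29 in wildtype lymphomas (SD, n = 6 each). Of the 32 members, 21 had their lowest level in wildtype replicate 1, 6 in null replicate 1 and 3 in null replicate 2. The highest levels were spread over more lymphomas, with 9 members at their highest in wildtype replicate 5 and 6 in wildtype replicate 3. The SD of a member over the 12 lymphomas had a median of 0.41, and that of all tested genes a median of 0.47.

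**Figure D1:**
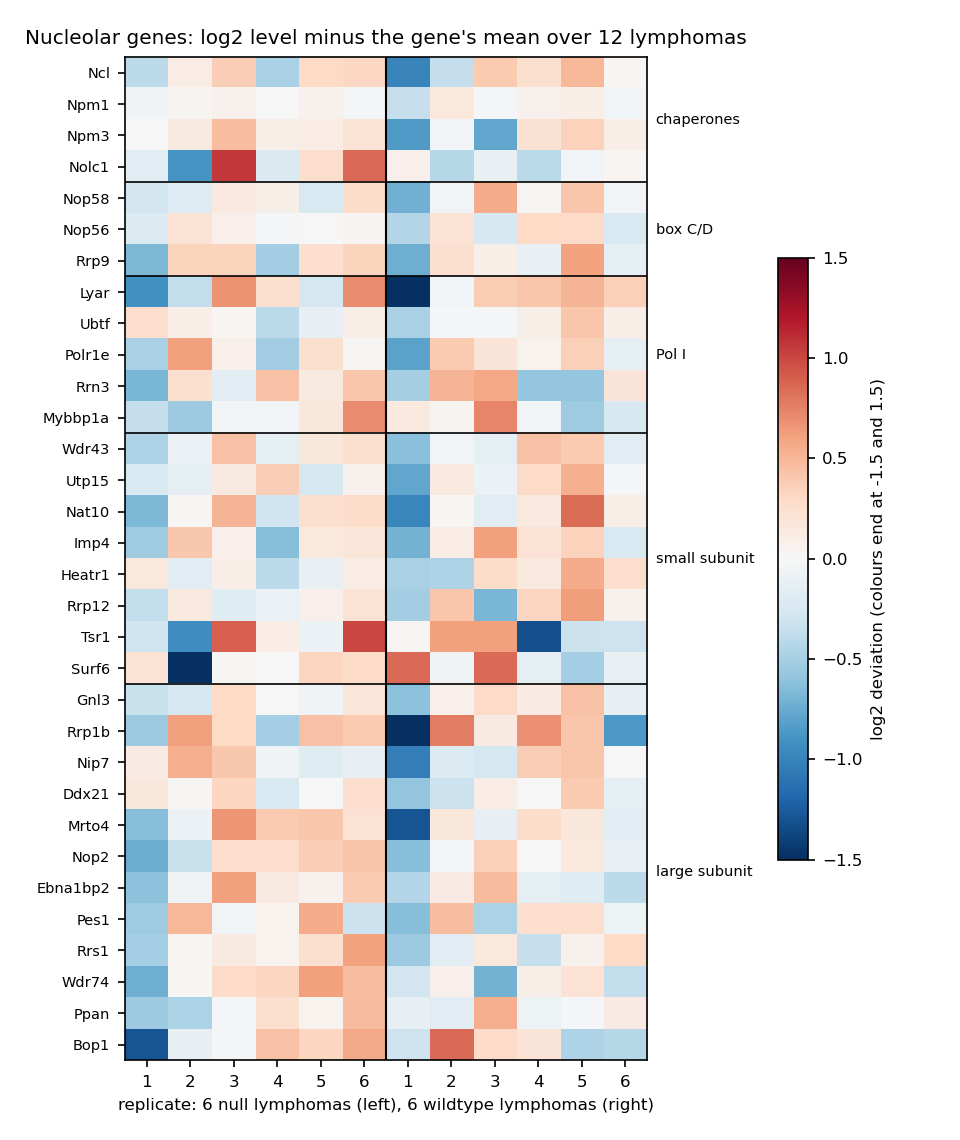
Log2 level of each of the 32 tested members in the 12 lymphomas as the deviation from the gene's mean, with rows grouped by role, 6 null lymphomas on the left and 6 wildtype lymphomas on the right. Wildtype replicate 1 is blue in most rows and holds the lowest level of 21 members, and null replicate 1 holds that of 6.

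Null and wildtype lymphomas were compared to ask whether loss of Smchd1 went with a change in these genes. No member passed the test: 0 of 32 were under an adjusted p of 0.05 (limma, Benjamini-Hochberg over all 12824 genes), where 0.0234% of all tested genes were (0.0078% higher and 0.0156% lower in null). At an unadjusted p under 0.05 the count was also 0 of 32, where 1.46% of all genes were under it. The difference was above 0 in 20 members and below 0 in 12, and 49.9% of all genes were above 0. The median difference was 0.03 in members and 0.00 in all genes. Single differences lay between -0.30 in Surf6 and 0.34 in Npm3. In no member were the 2 groups free of overlap, as they were in 0.0858% of all genes. With 6 lymphomas a group the error of a member's difference was wide: the SE was 0.14 for Npm1, the smallest of the members, and 0.43 for Rrp1b.

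The median difference depended on which BeadChip was read. It was 0.22 on BeadChip 1 alone, with 27 of 32 members above 0, and -0.12 on BeadChip 2 alone, with 7 above 0. BeadChip 1 held wildtype replicate 1 and BeadChip 2 held null replicate 1, the lowest lymphoma of each group. The median difference was 0.16 without null replicate 1, with 26 members above 0, and -0.09 without wildtype replicate 1, with 10 above 0. Neither direction can be given for the members as a group.

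**Figure D2:**
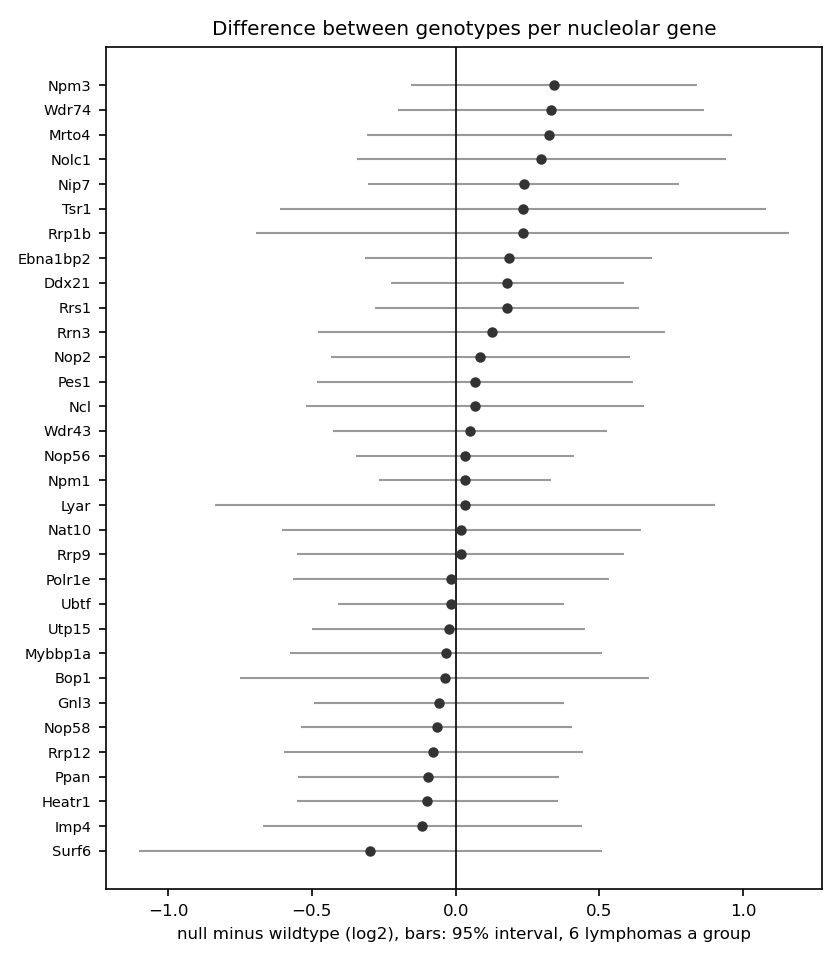
Null minus wildtype difference of each tested member in log2 intensity, with points for the estimate and bars for the 95% interval from limma (6 null and 6 wildtype lymphomas). All 32 intervals include 0, from Npm3 at 0.34 to Surf6 at -0.30.

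The 4 members with the smallest p for genotype had a higher mean in null lymphomas, and for 3 of them the sign turned on BeadChip 2. Npm3, of the same protein family as nucleophosmin, had a lowest, median and highest level of 14.05, 14.18 and 14.52 in null lymphomas, against 13.20, 14.08 and 14.40 in wildtype lymphomas. Wildtype replicates 1 and 3 lay well under all other lymphomas, and the rest overlapped. The difference was 0.34 ± 0.23 (SE; limma adjusted p = 1.00). A second Npm3 probe gave 0.65 and correlated with the first at r = 0.97 over the 12 lymphomas.

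Wdr74, a factor of large subunit assembly, stood at 9.87, 10.91 and 11.22 in null and at 9.89, 10.49 and 10.82 in wildtype lymphomas (lowest, median, highest). The lowest null and the lowest wildtype lymphoma were nearly equal, and 4 null lymphomas exceeded every wildtype one. The difference was 0.33 ± 0.25 (SE; limma adjusted p = 1.00).

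Mrto4, which in yeast holds the place of a ribosomal stalk protein during large subunit assembly, stood at 10.17, 11.12 and 11.47 in null and at 9.52, 10.83 and 11.09 in wildtype lymphomas. Wildtype replicate 1 was far below the rest. The difference was 0.33 ± 0.29 (SE; limma adjusted p = 1.00) and 0.10 without that lymphoma.

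Nolc1, a chaperone of small nucleolar ribonucleoproteins that moves between nucleolus and Cajal bodies, was dim and above background on 4 null and 4 wildtype arrays. Its levels were 4.32, 5.25 and 6.26 in null and 4.78, 5.12 and 5.28 in wildtype lymphomas. Null lymphomas held both its lowest and its 3 highest levels. The difference was 0.30 ± 0.30 (SE; limma adjusted p = 1.00). Within BeadChip 1 the difference was 0.70 for Npm3, 0.78 for Wdr74, 0.76 for Mrto4 and 0.45 for Nolc1. Within BeadChip 2 it was -0.02 for Npm3, -0.12 for Wdr74, -0.11 for Mrto4 and 0.14 for Nolc1. With 1 lymphoma left out at a time the difference lay between 0.20 and 0.44 for Npm3, between 0.22 and 0.51 for Wdr74 and between 0.10 and 0.49 for Mrto4, lowest without wildtype replicate 1 for Npm3 and Mrto4 and without wildtype replicate 3 for Wdr74. For Nolc1 it lay between 0.12, with null replicate 3 left out, and 0.50, with null replicate 2 left out, and was 0.08 with no background correction.

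Co-variation with Myc was examined next. Myc was read from the 1 of its 2 probes that was above background, which was so on all 12 arrays. Its level was 8.70, 8.88 and 9.42 in null and 7.46, 9.08 and 9.49 in wildtype lymphomas (lowest, median, highest), with means of 8.94 ± 0.26 and 8.84 ± 0.75 (SD, n = 6 each). Wildtype replicate 1 was the lymphoma at 7.46, and the other 11 lay between 8.60 and 9.49. The share of the Myc signal that came from the transgene is not given in the sources used here.

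Most members were higher where Myc was higher, and much of this rested on that 1 lymphoma. Pearson r with Myc was above 0 in 29 of 32 members, against 52.1% of all tested genes, and its median was 0.63 in members and 0.03 in all genes. Spearman's rho had a median of 0.45 in members. Of the 32, 22 had an r above the 75th percentile of all genes. In a fit with genotype as a term, the slope on Myc passed an adjusted p of 0.05 in 0 of 32 members in either direction, where 0.0468% of all genes passed with a positive and 0.0312% with a negative slope (limma). At an unadjusted p under 0.05, 15 of 32 members had a positive slope, against 11.2% of all genes, and 0 a negative one, against 8.98%. The median slope was 0.39 log2 units per log2 unit of Myc in members and 0.02 in all genes.

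With that lymphoma left out the median r of the members was 0.33, with 28 of 32 above 0, and 0 of 32 had a slope with an unadjusted p under 0.05 in either direction, where 2.36% of all genes had a positive and 2.08% a negative one. Over the same 11 lymphomas 53.1% of all genes had an r above 0 and the median of all genes was 0.03. Leaving out the 2 lymphomas farthest from the median Myc level, wildtype replicates 1 and 4, gave a median r of 0.37 with 27 above 0. Within BeadChip 1 the median r was 0.78 with 31 members above 0, and within BeadChip 2 it was 0.56 with 30 above 0 (n = 6 each). Within null lymphomas it was 0.32 with 27 above 0, and within wildtype lymphomas, which include replicate 1, 0.80 with 28 above 0. The slopes of the genotypes were compared by an interaction term, which 0 of 32 members passed after adjustment, with 0% of all genes called (limma). Nolc1 alone had an unadjusted p under 0.05 (0.0452, with 0.624% of all genes under it).

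Permutation of the 12 Myc levels gave the same picture. For Pearson r, 0 members passed the adjusted threshold, with 0% of all genes called, and 18 of 32 had an unadjusted permutation p under 0.05 with a positive r, against 12.2% of all genes, and 0 with a negative one, against 8.75%. For Spearman's rho, which gives the outlying lymphoma less weight, 0 members passed, with 0.0234% of all genes called, and 10 of 32 had an unadjusted permutation p under 0.05 with a positive rho, against 7.58%, and 0 with a negative one, against 4.76%. Scaling mattered as well: with arrays scaled to a common median in place of quantile normalization, the median slope of all genes moved to 0.33 and that of the members to 0.80. Under that scaling 17 of 32 members passed with a positive slope, but 12.6% of all genes did so too, with 1610 positive and 42 negative calls against 6 and 4 under quantile normalization. The members' median slope exceeded that of all genes under both.

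**Figure D3:**
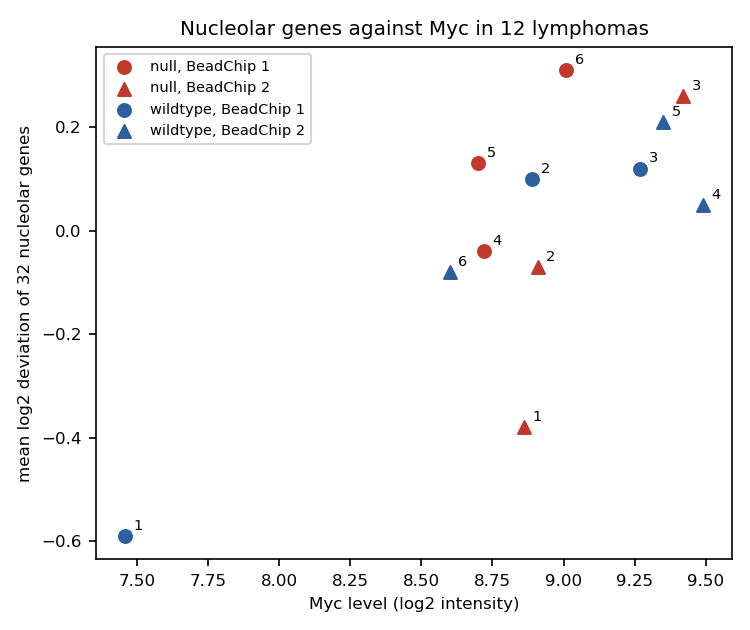
Mean log2 deviation of the 32 tested members (vertical axis) against the log2 level of Myc (horizontal axis) in 6 null lymphomas (red) and 6 wildtype lymphomas (blue), with circles for BeadChip 1, triangles for BeadChip 2 and numbers for replicates. Wildtype replicate 1, at a Myc level of 7.46 and a mean deviation of -0.59, lies apart from the other 11.

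The mean deviation of the members correlated with Myc at r = 0.77 and rho = 0.62 over the 12 lymphomas, and at r = 0.47 and rho = 0.50 without wildtype replicate 1, given as a description. Null replicate 1 was the second lowest lymphoma for the members, at -0.38, with a Myc level of 8.86 in the middle of the range. The mean deviation had r = 0.11 with mean raw intensity and -0.34 with the number of probes above background, and without wildtype replicate 1 these were 0.56 and 0.06. The 0.56 with mean raw intensity was thus larger than the 0.47 with Myc over the same 11 lymphomas. With mean raw intensity r was 0.70 in null and -0.55 in wildtype lymphomas, and -0.63 on BeadChip 1 and 0.70 on BeadChip 2 (n = 6 each). The Myc level itself had r = -0.37 with mean raw intensity and -0.68 with the number of probes above background. The part of array brightness in these relations was not tested.

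Among the ribonucleoprotein chaperones, Ncl (nucleolin, an abundant binder of ribosomal RNA precursors) stood at 10.72, 11.41 and 11.57 in null and at 10.21, 11.34 and 11.70 in wildtype lymphomas. The lymphoma with the lowest Myc was also the lowest for Ncl. Its r with Myc was 0.81 (permutation p = 0.00192, adjusted 0.0985) and 0.60 without that lymphoma, and its slope was 0.69 ± 0.18 (SE; limma adjusted p = 0.0805).

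Npm1, or nucleophosmin, the scaffold of the granular part of the nucleolus, varied least of all members, with an SD of 0.13 over the 12 lymphomas. It stood at 14.34, 14.41 and 14.45 in null and at 14.04, 14.41 and 14.55 in wildtype lymphomas. Its r of 0.80 (permutation p = 0.0164, adjusted 0.15) was 0.28 without wildtype replicate 1. The slope, 0.18 ± 0.12, was the smallest among the 6 members with the highest r (SE; limma adjusted p = 0.429). For Npm3 r was 0.58 and 0.08 without that lymphoma. For Nolc1 r was 0.07, with 0.62 within null and -0.56 within wildtype lymphomas (n = 6 each).

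The 3 tested box C/D members, whose particles guide methylation and cleavage of ribosomal RNA, all had an r above 0.6. It was 0.79 for Nop58 and 0.69 for Nop56, both core proteins of the particle, and 0.62 for Rrp9, a protein of the U3 particle. With the other 11 lymphomas alone the r was 0.57, 0.45 and 0.39. Their differences between genotypes were -0.07, 0.03 and 0.02. Nop56 varied little, between 11.36 and 11.78 in null and between 11.13 and 11.87 in wildtype lymphomas.

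Among the members grouped here with the RNA polymerase I machinery, Lyar, a nucleolar zinc finger protein linked to cell growth, followed Myc most. It stood at 8.43, 9.33 and 10.05 in null and at 7.62, 9.71 and 9.85 in wildtype lymphomas. Both the lowest wildtype and the lowest null lymphoma were replicate 1. Its r was 0.81 (permutation p = 0.00467, adjusted 0.114), its slope 1.08 ± 0.26 (SE; limma adjusted p = 0.0657), and r without wildtype replicate 1 was 0.49.

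Ubtf, which binds the ribosomal DNA promoter, had an r of 0.68, and Polr1e, a subunit of the polymerase, 0.63. A second Ubtf probe, above background on 3 arrays, had 0.02. Rrn3, the factor that joins the polymerase to the promoter and the member with 2 E-boxes shown above, had an r of 0.05. Within BeadChip 1 its r was 0.96 and within BeadChip 2 it was -0.54. It was -0.43 without wildtype replicate 1, lowest of the members.

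Mybbp1a, a nucleolar protein that binds the transcription factor Myb, stood at 11.04, 11.55 and 12.29 in null and at 11.05, 11.59 and 12.32 in wildtype lymphomas. The groups covered nearly the same range. Its r was -0.03 (permutation p = 0.915, adjusted 0.966) and its slope -0.02 ± 0.25 (SE; limma adjusted p = 0.972). This was the brightest of 4 Mybbp1a probes above background, and the other 3 had r between 0.49 and 0.78, so the choice of probe decides how Mybbp1a is read.

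In the small subunit group, 6 of 8 members had an r above 0. It was 0.78 for Wdr43 and 0.77 for Utp15, both of the early processome that assembles on the nascent transcript, and 0.63 for Heatr1 of the same complex. Wdr43 had the highest rho of the members, 0.81 (permutation p = 0.00197, adjusted 0.238), and kept an r of 0.67 without wildtype replicate 1. Nat10, which acetylates the small subunit RNA, had an r of 0.72, and Imp4, a partner of the U3 particle, 0.69. Rrp12, a factor of subunit export, had 0.38.

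Tsr1, which acts in late 40S maturation, was dim and stood at 4.93, 5.87 and 6.87 in null and at 4.54, 5.72 and 6.48 in wildtype lymphomas. The 2 groups overlapped throughout. Its r was -0.02 (permutation p = 0.957, adjusted 0.982) and its slope -0.04 ± 0.39 (SE; limma adjusted p = 0.964).

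Surf6, a nucleolar matrix protein counted here in the small subunit group, stood at 4.41, 6.29 and 6.49 in null and at 5.66, 6.09 and 7.02 in wildtype lymphomas. Null replicate 2 was far below the rest, and wildtype replicates 1 and 3 were the highest. Its r was -0.31 (permutation p = 0.266, adjusted 0.549) with a slope of -0.36 ± 0.36 (SE; limma adjusted p = 0.621), and 0.04 without wildtype replicate 1. The other 2 Surf6 probes had r between 0.29 and 0.41, and 1 of them was above background on 5 arrays.

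All 12 members grouped here with the large subunit had an r above 0, with a median of 0.52. Gnl3, or nucleostemin, a nucleolar GTPase, had the highest r of the members on the probes used in the tests. It stood at 13.09, 13.40 and 13.73 in null and at 12.81, 13.53 and 13.87 in wildtype lymphomas. It was lowest in the lymphoma lowest for Myc, with r = 0.84 (permutation p = 0.00053, adjusted 0.0924) and rho = 0.79. Its slope was 0.48 ± 0.14 (SE; limma adjusted p = 0.102), and r was 0.72 without wildtype replicate 1. On 3 Gnl3 probes r lay between 0.31 and 0.88.

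Rrp1b, a nucleolar regulator of processing, had the highest SD of the members over the 12 lymphomas, 0.78. It stood at 10.43, 11.32 and 11.58 in null and at 9.13, 11.25 and 11.74 in wildtype lymphomas. Wildtype replicates 1 and 6 were its lowest. Its r was 0.81 (permutation p = 0.00448, adjusted 0.114) and its slope 1.16 ± 0.27, with the smallest adjusted p of the members (SE; limma adjusted p = 0.0649). Its r was 0.52 without wildtype replicate 1. On 3 Rrp1b probes r lay between 0.27 and 0.81.

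Nip7, a large subunit assembly factor, stood at 11.22, 11.44 and 11.95 in null and at 10.37, 11.31 and 11.82 in wildtype lymphomas. Apart from wildtype replicate 1 the 2 groups covered the same range. Its r was 0.80 (permutation p = 0.00607, adjusted 0.118), its slope 0.62 ± 0.17 (SE; limma adjusted p = 0.0909), and r without that lymphoma 0.46.

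Of the other large subunit members, Ddx21, an RNA helicase, had an r of 0.80, Mrto4 0.74, Nop2, a methyltransferase of the large subunit RNA, 0.53, and Ebna1bp2 0.50. Other probes of Nop2 had 0.44 and 0.87. A second Ebna1bp2 probe, above background on all 12 arrays, had 0.92, more than the 0.84 of the tested Gnl3 probe. Pes1 and Bop1, partners in the PeBoW complex, had 0.35 and 0.15. Rrs1, which in yeast helps to load the 5S particle, had 0.34, Wdr74 0.18 and Ppan 0.15. A second Ppan probe had 0.53. Rrs1 was above background on 4 null and 2 wildtype arrays. Over the other 11 lymphomas, without wildtype replicate 1, 10 of the 12 were above 0, with Pes1 at -0.11 and Rrs1 at -0.18.

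**Figure D4:**
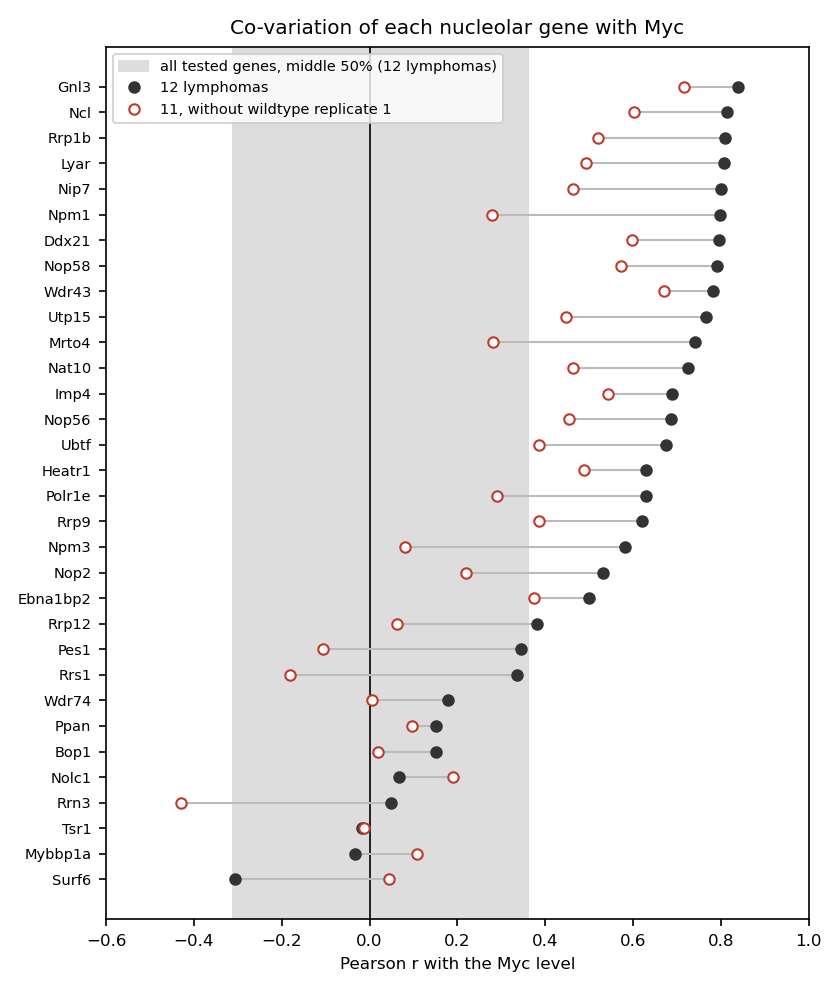
Pearson r of each tested member with the log2 level of Myc over 12 lymphomas (filled points) and over 11 without wildtype replicate 1 (open red points), with the middle 50% of all tested genes as a grey band. Gnl3 is at 0.84 with and 0.72 without that lymphoma, and Npm1 at 0.80 with and 0.28 without it.

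Probes of a gene did not always give the same reading. Of 52 member probes above background on 3 or more arrays, 49 had an r with Myc above 0, against 52.8% of 18920 such probes on the array. Of the 14 members with 2 or more such probes, 11 had r of 1 sign on all of them, and 8 had a genotype difference of 1 sign.

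The members varied together across lymphomas only in part. With the genotype means removed, the median r over 496 pairs of members was 0.47, and 83.7% of pairs were above 0. The median was 0.32 without wildtype replicate 1, and 79.2% were above 0. The highest pair was Ddx21 with Heatr1 at 0.93, and Gnl3 with Nop58 followed at 0.92. The lowest was Nip7 with Surf6 at -0.73. Set against the mean of the other members, 21 of 32 had an r over 0.5, and 17 without that lymphoma. All these values share the same arrays.

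The other genes of the pathway behaved much like the members. Of 90 other tested ribosome biogenesis genes, 0 passed for genotype, with 42 higher and 48 lower in null and a median difference of -0.02. Nmd3, the export adaptor of the large subunit, and Utp11 of the processome had the smallest p, with differences of 0.46 ± 0.23 and 0.31 ± 0.16 (SE; limma adjusted p = 1.00 for both). The median r of the list with Myc was 0.51, or 0.30 without wildtype replicate 1, with 76 of 90 above 0 on all 12 arrays. For the slope on Myc, 0 passed. At an unadjusted p under 0.05, 32 had a positive slope and 1 a negative one, where 11.2% and 8.98% of all genes did. The negative one was Nop53, a large subunit factor, at -0.69 ± 0.20 (SE; limma adjusted p = 0.102), named after its value was seen. The mean deviation of the list had r = 0.96 with that of the members, and 0.94 without wildtype replicate 1.

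Genes of nucleotide and polyamine synthesis (23 tested) and of DNA replication and proliferation (21 tested) varied with the members too. Their mean deviations had r = 0.96 and 0.87 with that of the members, and 0.92 and 0.72 without wildtype replicate 1. Their median r with Myc was 0.74 and 0.75, or 0.35 and 0.32 without it. In each list 1 gene passed for the slope on Myc, Tyms (thymidylate synthase) at 1.66 ± 0.20 and Plk1 (a mitotic kinase) at 1.59 ± 0.24 (SE; limma adjusted p = 0.0277 and 0.0432). With wildtype replicate 1 left out, 0 slopes of any gene passed. None of either list passed for genotype (limma; 0 also at an unadjusted p under 0.05). In wildtype replicate 1 the proliferation genes deviated by -1.90 and in null replicate 1 by -1.06, the 2 lowest values of that list.

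Markers of T cells moved the other way. The mean deviation of 12 tested T cell genes had r = -0.75 with that of the members, or -0.79 without wildtype replicate 1, and r = -0.46 with Myc. All 12 had a negative r with the members' mean. The mean level of the list was between 5.35 and 9.82 in null and between 5.73 and 8.09 in wildtype lymphomas, highest in null replicate 1 at 9.82 and in wildtype replicate 1 at 8.09. Cd3e, a defining T cell gene, was at 10.41 in null replicate 1 and 9.47 in wildtype replicate 1, and was above background on 3 null and 3 wildtype arrays by that probe. The mean deviation of 5 tested NK cell genes was 1.76 in wildtype replicate 1, the highest of the 12, and that of the B lineage genes 1.13, also the highest. Without the 3 arrays highest in T cell genes (null replicate 1, wildtype replicates 1 and 6), the median r of the members with Myc was 0.16 with 23 of 32 above 0. Leaving out wildtype replicate 1 alone gave 0.33. With the T cell mean as a term, the members' median slope on Myc was 0.38, against 0.39 in the reported fit, with 24 of 32 slopes above 0. There 13 of 32 members had a positive slope with an unadjusted p under 0.05 (limma), against 8.74% of all genes. After adjustment 0 members passed. The part of other cells in the members' levels was not tested. The mean of the NK cell genes had r = -0.66 with the members' mean, or -0.32 without wildtype replicate 1, and that of the B lineage genes -0.23, or 0.07 without it. Of the remaining lists, the erythroid genes had r = -0.35 with the members' mean (-0.56 without that lymphoma), the macrophage and monocyte genes -0.35 (-0.29), the neutrophil genes -0.10 (-0.28) and the Myc network 0.16 (-0.08).

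**Figure D5:**
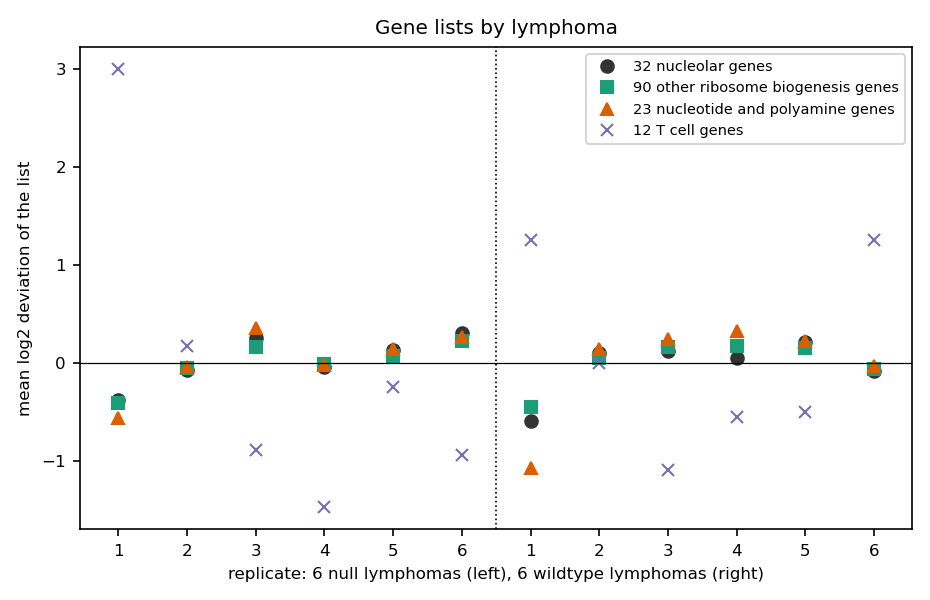
Mean log2 deviation of 4 gene lists in each lymphoma, with 6 null lymphomas on the left and 6 wildtype lymphomas on the right. The ribosome biogenesis and nucleotide lists lie with the members in each lymphoma, lowest in wildtype replicate 1 and null replicate 1, where the T cell list is at 1.26 and 3.00.

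The 10 listed genes that no target name matched were sought under older names, and 7 were tested in this way. Of these, 4 had an r with Myc above 0. Gar1 (target name NOLA1) and Nhp2 (NOLA2), core proteins of the box H/ACA particles that guide pseudouridine formation, had r of 0.89 and 0.74, with slopes of 0.48 ± 0.13 and 0.51 ± 0.18 (SE; limma adjusted p = 0.0899 and 0.141). Without wildtype replicate 1 their r was 0.70 and 0.37. Nop10 (NOLA3), of the same particles, had an r of -0.20. Of the large polymerase I subunits, Polr1a (RPO1-4) had 0.53, or 0.24 without wildtype replicate 1, and Polr1b (RPO1-2) -0.08, and Polr1c (RPO1-1), shared with polymerase III, had 0.00. Nop14 (NOL14), a small subunit factor, had 0.22. Differences between genotypes lay between -0.29 in Polr1b and 0.19 in Polr1c. Probes for Nop16 and Utp20 were not above background on any array. For Fbl (fibrillarin), the remaining listed gene, no probe was found under its own or an older name.

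The tested genes other than the 32 members whose levels were most like the mean of the members over the 12 lymphomas were Pebp1 (r = 0.98), Prps1 (0.97), Slc19a1, Mrpl12, Ecsit, Nhp2, LOC383897 and Mipep (0.95 each), and Timm50 and Atp5a1 (0.94 each). Prps1 makes the activated ribose for nucleotide synthesis, Slc19a1 carries folate into cells, and Mrpl12, Timm50 and Atp5a1 encode mitochondrial proteins. Without wildtype replicate 1 these r lay between 0.88 and 0.97. The lowest were Lpp, Zfp513, Asb13 and Ypel5 at -0.94 and Triobp at -0.93. Nhp2 is the listed box H/ACA gene found under an older name, as above. These genes were picked among 12824 by this likeness, so the values are a description.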

How the data were processed

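Total RNA of 12 lymphomas was hybridised to Illumina MouseWG-6 version 2 arrays, 1 per lymphoma. Each deposited intensity is the average over the beads of 1 probe, left without normalization on export from GenomeStudio 1.6.0, per the file headers. A deposited detection fraction stands for 1 minus the detection p-value, which the deposited raw table gives as such. The deposited log2 values were made by the authors with neqc, per the deposited readme, and the submitters' processing notes name BeadStudio, limma 3.12.1 and R 2.15.1. They served as an alternative.

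Raw intensities were background-corrected by normexp on 936 negative control probes with an offset of 16, quantile normalized and put on the log2 scale (neqc in limma 3.58.1, R 4.3.3). All levels and differences are on that log2 scale. A probe was called above background at a detection p-value under 0.05 and entered the tests if it was so on at least 3 of 12 arrays, which left 12824 genes, each read from its probe with the highest mean. Target names were updated to current symbols through RefSeq. Genotype, the slope on Myc with genotype as a term, and their interaction were fitted with lmFit and eBayes over all these genes, and p-values were adjusted by Benjamini-Hochberg. The slope and the correlations were computed for 12823 genes, leaving out Myc. Permutation p-values are two-sided and used 1e+05 resamples. A ± SE is that of the limma fit, and the procedure of that fit was tested on simulated data. That test asked whether set effects, larger than any member's genotype difference, were recovered on average. It did not check the SE itself. Precision is limited by the number of arrays.

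Groups and replicate numbers came from the sample titles, and BeadChips from the labels. Members with values in each group were those with the 4 smallest p for genotype and the 6 highest and 3 lowest Pearson r with Myc. The members and all gene lists were chosen with earlier results of these data known, so no list was tested as a set. Same-numbered null and wildtype lymphomas were not treated as pairs, since the labels do not say whether they are related. Their deviations correlated between -0.26 and 0.68, with a median of 0.23, which does not settle the matter.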

Additional observations from a re-analysis of the deposited data

Results flagged for a closer look

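In each genotype the most extreme lymphoma was compared with its nearest neighbour, relative to the range of the group (Dixon's test for 6 samples, 95% critical value), for each of the 32 tested members, their mean and Myc. Of the 68 tests 5 were over the critical value, where chance alone gives about 5%. The tests share the same arrays and are not independent, so that share is only a rough guide. Bop1, a partner of Pes1 in large subunit assembly, was at 7.78 in null replicate 1, with the next null lymphoma at 8.95. Surf6 was at 4.41 in null replicate 2. In wildtype replicate 1, Lyar was at 7.62 and Mrto4 at 9.52, and the mean deviation of the members was -0.59. That lymphoma also had the lowest Myc level, 7.46.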

How the results depend on the processing

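No member passed for genotype under any of the 26 alternatives run, and none passed with a negative slope on Myc under any of 30. Over the alternatives the median genotype difference of the members lay between -0.12 and 0.22, against 0.03 in the reported fit, so its sign turned in some. These shifts were under 0.27, the pooled SD of the members' mean between lymphomas of a genotype. That limit is wide beside the difference itself, so staying within it does not show a stable difference. Between 23 and 32 members had an r with Myc above 0. The median r with Myc, 0.63, was 0.36 without wildtype replicate 1 and null replicates 1 and 2, 0.32 in null lymphomas alone, 0.37 without the 2 lymphomas farthest from the median Myc level, and 0.16 without the 3 arrays highest in T cell genes, and lay between 0.33 and 0.69 with 1 lymphoma left out, lowest without wildtype replicate 1. The last of these 3-array settings and the T cell mean as a term were chosen after seeing the data. Members that passed with a positive slope numbered 0 of 32 in the reported fit, where 0.0468% of all tested genes did so. The count was 1 of 32 with no background correction (Gnl3, against 0.905% of all genes) and 17 of 32 with median scaling (against 12.6%). Among genes above background on all 12 arrays it was 2 of 28 (Lyar and Rrp1b, against 3.46% of 7831 genes). It was 11 of 32 with array weights (against 6.61%) and 2 of 32 with no genotype term (against 1.72%). With 1 lymphoma left out it lay between 0 and 3, with 3 without null replicate 1 (Lyar, Mrto4 and Rrp1b, against 2.95%). Over all genes, 10 slopes of either sign passed in the reported fit. This count was 167 with no background correction, 1652 with median scaling, 334 among genes above background on all 12 arrays, 54 with no filter on dim probes, 2 with the mean over detected probes, 1493 with array weights, 326 with no genotype term and 78 in wildtype lymphomas alone. It was 0 on BeadChip 1 alone, on BeadChip 2 alone, in null lymphomas alone, with the T cell mean as a term and in each setting that left out 2 or 3 lymphomas, and between 0 and 653 with 1 lymphoma left out, the highest (653, 156 and 151) when null replicate 1, null replicate 4 or wildtype replicate 6 was left out, and 0 when wildtype replicate 1, 2, 3 or 5 was. For genotype, 3 genes passed, against 1 among genes above background on all 12 arrays, 1 on BeadChip 1 alone, 0 on BeadChip 2 alone, 1 without the 3 arrays highest in T cell genes, and between 3 and 5 with 1 lymphoma left out. With replicate number as a block, which the labels do not give as a pairing, 3 genes passed for genotype and 0 for the slope on Myc. There 4 of 32 members had a positive slope with an unadjusted p under 0.05 (limma), against 4.84% of all genes. In the reported fit 15 of 32 had one, against 11.2%. Single members near 0 turned sign easily. With the mean over detected probes the genotype difference was 0.13 for Gnl3 and -0.04 for Ncl. On BeadChip 1 alone the genotype difference was 0.13 for Gnl3 and -0.08 for Tsr1. With median scaling the genotype difference was -0.05 for Lyar, -0.01 for Ncl and -0.08 for Npm1. On BeadChip 2 alone the genotype difference was -0.62 for Lyar, -0.11 for Mrto4, -0.22 for Ncl, -0.02 for Npm1, -0.02 for Npm3 and -0.12 for Wdr74. With array weights the genotype difference was -0.02 for Lyar, 0.12 for Mybbp1a and 0.00 for Ncl. Without the 3 arrays highest in T cell genes the genotype difference was -0.12 for Lyar, -0.07 for Ncl, -0.04 for Npm1 and -0.25 for Rrp1b. With the T cell mean as a term the genotype difference was -0.02 for Lyar. Without wildtype replicate 1 and null replicates 1 and 2 the genotype difference was 0.21 for Mybbp1a, -0.04 for Ncl, -0.05 for Nip7, -0.02 for Npm1, -0.07 for Rrp1b and 0.15 for Surf6. Leaving out 1 lymphoma at a time put the genotype difference between -0.19 and 0.02 for Gnl3, -0.31 and 0.22 for Lyar, -0.18 and 0.11 for Mybbp1a, -0.13 and 0.17 for Ncl, -0.03 and 0.07 for Npm1, -0.11 and 0.41 for Rrp1b, -0.43 and 0.03 for Surf6 and -0.01 and 0.44 for Tsr1. With median scaling the slope on Myc was 1.05 for Mybbp1a, 0.57 for Surf6 and 0.84 for Tsr1. With the mean over detected probes the slope on Myc was 0.43 for Mybbp1a, 0.13 for Surf6 and 0.03 for Tsr1. With BeadChip as a term the slope on Myc was 0.26 for Mybbp1a and 0.32 for Tsr1. On BeadChip 1 alone the slope on Myc was 0.28 for Mybbp1a, -0.08 for Nolc1, 0.44 for Tsr1 and -0.10 for Wdr74. On BeadChip 2 alone the slope on Myc was 0.24 for Mybbp1a, 0.21 for Surf6 and 0.27 for Tsr1. Without wildtype replicate 1 and null replicates 1 and 2 the slope on Myc was 0.09 for Mybbp1a and 0.01 for Tsr1. In null lymphomas alone the slope on Myc was 0.12 for Mybbp1a and 1.58 for Tsr1. Without the 2 lymphomas farthest in Myc the slope on Myc was 0.21 for Mybbp1a, 0.12 for Surf6 and 0.89 for Tsr1. With the replicate block the slope on Myc was -0.12 for Nolc1 and -0.24 for Wdr74. In wildtype lymphomas alone the slope on Myc was -0.16 for Nolc1. With the T cell mean as a term the slope on Myc was -0.07 for Nolc1 and -0.13 for Wdr74. Without the 3 arrays highest in T cell genes the slope on Myc was -0.05 for Npm1 and -0.13 for Wdr74. With no background correction the slope on Myc was 0.02 for Tsr1. Leaving out 1 lymphoma at a time put the slope on Myc between -0.15 and 0.16 for Mybbp1a, -0.14 and 0.56 for Nolc1, -0.51 and 0.01 for Surf6 and -0.20 and 0.29 for Tsr1. The causes of these changes were not tested. Only 1 Myc probe was above background, so no other Myc probe could be used. The dim members Nolc1, Rrs1, Surf6 and Tsr1 lay near background on some arrays, which limits what their values show.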
